A study of Mus musculus with 3 samples.

Results

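The 6 genes described here belong to the Notch pathway and were followed in Müller glia that carried an activated form of the transcriptional co-activator YAP. They were the receptors Notch1 and Notch2, the ligand Dll1, and Hes1, Hes5 and Hey2, which encode transcriptional repressors that Notch activity is known to induce. They were chosen by name, and are 6 of the 18478 genes in the count table, each of them detected in every run. The cells came from retinas of adult Glast-CreERT+/tg; Yap5SA+/tg; ROSA26R-tdTomato+/tg mice. Tamoxifen was given first to switch on the transgenes, then NMDA, an excitotoxin that kills retinal neurons, was injected. At 2 days after NMDA, tdTomato+ cells were sorted and 3 single-cell RNA-seq libraries were made, called runs 1, 2 and 3. All cells share this genotype and injury, and no control group without YAP5SA or without NMDA is among the libraries analysed here, so every comparison below is between classes of cells within the runs. The Glast promoter is also active in astrocytes, the Yap5SA transgene is not a row of the table, and the labels do not say whether the runs came from different mice. Run was therefore the replicate, and it was a block in the tests. Each p-value sets a difference between classes against the spread left over all classes and runs of its fit, and that spread may be technical.

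Notch receptors are cleaved when a ligand such as Delta-like 1 on a neighbouring cell binds them, and the freed intracellular part joins the DNA-binding protein RBPJ to switch on target genes. The Hes and Hey proteins made from those targets hold down proneural genes such as Neurog2. In the developing retina Notch activity keeps progenitors undifferentiated and favours the glial fate, and in fish and bird retina Notch signalling bears on whether Müller glia divide after injury. YAP acts on DNA through TEAD proteins, and Fos and Junb encode subunits of AP-1.

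RefSeq promoters (build GRCm38.p6, which has the coordinates of mm10) were at hand for 5 of the 6 genes, and Hes1 had none. Each was searched on both strands over the 250 bases before the start of transcription for the RBPJ core TGGGAA, the TEAD core GGAATG, the AP-1 motif TGANTCA and the CRE motif TGACGTCA. Of 32851 mouse promoters of this length, 21.6% held the RBPJ core, 12.6% the TEAD core, 6.75% the AP-1 motif and 1.55% the CRE motif. The Hes5 window, chr4:154960673-154960922 on the plus strand, held 2 RBPJ cores, at 226 to 221 and at 82 to 77 bases before the start. The Hey2 window, chr10:30842784-30843033 on the minus strand, held 1 RBPJ core at 207 to 202 bases before the start, which overlaps a TEAD core at 209 to 204. The Notch1 window, chr2:26503823-26504072 on the minus strand, held 2 TEAD cores, at 233 to 228 and 216 to 211 bases before the start. Of 2 Dll1 starts on the minus strand, the upstream one (chr17:15376933-15377182) held 1 AP-1 motif at 109 to 103 bases before it. The Notch2 window on chromosome 3 and the other Dll1 window held none of these motifs. Capitals below mark the motifs, on the gene's own strand and 5′ to 3′. Hes5 and Hey2 are shown because they are the targets whose windows hold an RBPJ core, and Notch1 and Dll1 because their windows hold a motif of TEAD or AP-1. A match is a description of these letters and not evidence of binding.
Hes5: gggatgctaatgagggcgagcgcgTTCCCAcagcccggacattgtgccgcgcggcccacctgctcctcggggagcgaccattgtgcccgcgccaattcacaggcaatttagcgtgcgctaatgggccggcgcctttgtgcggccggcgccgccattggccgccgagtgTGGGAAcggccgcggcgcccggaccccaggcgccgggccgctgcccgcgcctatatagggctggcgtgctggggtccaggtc
Hey2: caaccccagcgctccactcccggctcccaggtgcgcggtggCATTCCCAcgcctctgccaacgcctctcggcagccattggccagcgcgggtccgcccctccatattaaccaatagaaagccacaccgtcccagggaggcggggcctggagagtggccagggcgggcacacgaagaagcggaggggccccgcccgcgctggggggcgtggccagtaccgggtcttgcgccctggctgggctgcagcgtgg
Notch1: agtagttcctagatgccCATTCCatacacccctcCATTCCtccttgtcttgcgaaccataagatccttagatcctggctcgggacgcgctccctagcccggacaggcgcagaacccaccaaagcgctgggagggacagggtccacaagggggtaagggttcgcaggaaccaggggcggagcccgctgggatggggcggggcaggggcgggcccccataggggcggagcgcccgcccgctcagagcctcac
Dll1: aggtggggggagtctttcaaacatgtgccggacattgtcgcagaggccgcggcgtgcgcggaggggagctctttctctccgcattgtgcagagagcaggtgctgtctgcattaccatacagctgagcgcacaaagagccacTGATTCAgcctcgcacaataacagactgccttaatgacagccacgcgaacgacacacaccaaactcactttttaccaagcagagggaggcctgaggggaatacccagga

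The runs held 7668, 8799 and 8205 cells after filtering, 24672 in all, with 94858762, 122888236 and 97032672 unique molecular identifiers (UMIs, each a captured transcript). Cells were classed by Igfbp2, which encodes an insulin-like growth factor binding protein: 6520 cells had at least 5 Igfbp2 UMIs per 10000 (Igfbp2-high), 15054 had under 1 (Igfbp2-low), and the 3098 between entered no class. Each was parted by Top2a, Mki67, Cdk1 and Ccnb1, genes of dividing cells, into cycling cells with at least 2 UMIs of these in sum and non-cycling cells with 0. This gave 4961 Igfbp2-high cycling, 1126 Igfbp2-high non-cycling, 286 Igfbp2-low cycling and 13045 Igfbp2-low non-cycling cells, with 88 or more in each run. The classes differed in depth: median UMIs per cell ranged over the runs from 20985.5 to 23815.5 in Igfbp2-high cycling, 13579 to 15364 in Igfbp2-high non-cycling, 11767 to 14593.5 in Igfbp2-low cycling and 8454 to 10221.5 in Igfbp2-low non-cycling cells. The median share of UMIs from mitochondria, a sign of RNA quality, moved with the classes too, at 2.93% to 3.34% over the runs in Igfbp2-high cycling, 4.03% to 4.66% in Igfbp2-high non-cycling, 4.22% to 4.75% in Igfbp2-low cycling and 4.97% to 5.91% in Igfbp2-low non-cycling cells. Its part in the changes of Hes1, Hes5 and Notch1 was not tested. Levels are therefore given as CPM, the gene's UMIs summed over a class per 1000000 UMIs of that class. Run 3 stood apart in Fos and Junb, with an upper-quintile limit of 80.6 UMIs per 10000 against 42.1 in run 1 and 46.3 in run 2, and it had the highest Hes1 level in each of the 4 classes.

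The sorted cells were checked against defining markers. The 12 Müller glia markers, all detected, summed to 10578 to 12268 CPM in Igfbp2-high cycling, 15240 to 17788 in Igfbp2-high non-cycling, 14345 to 18576 in Igfbp2-low cycling and 24178 to 28182 CPM in Igfbp2-low non-cycling cells. Markers of other cell types differed between the classes as well. The 8 microglia markers summed to 233 to 4307 CPM in Igfbp2-low cycling cells, against 3.26 to 59.2 CPM over the other 3 classes. In Igfbp2-high non-cycling cells, the 4 astrocyte markers summed to 76.9 to 82.7 CPM and the 5 pericyte markers to 311 to 404 CPM, against 2.56 to 45.9 and 11.2 to 51.6 CPM over the other 3 classes. The 8 rod markers summed to 1406 to 1614 CPM in Igfbp2-low non-cycling cells and to 561 to 1330 CPM over the others. The 6 endothelial markers, Kdr among them, were lowest in both Igfbp2-high classes and highest in Igfbp2-low non-cycling cells, as Hes1 and Hes5 were. They summed to 110 to 131 CPM in Igfbp2-high cycling, 129.9 to 169 in Igfbp2-high non-cycling, 299 to 368 in Igfbp2-low cycling and 512 to 579.7 CPM in Igfbp2-low non-cycling cells. Results for these classes were therefore repeated without cells that held 2 or more UMIs of rarer microglia, astrocyte, endothelial and pericyte markers. Below these are called other types' rarer markers, and each was found in under 10% of cells. Markers of rods and other neurons did not enter this filter. The repeats are given where they change a call.

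Over all cells and relative to their means, Hes1 and Hes5 varied most between runs, Notch1, Notch2 and Hey2 varied little, and Dll1 lay between. Notch1 averaged 49.7 ± 3.27 CPM, Notch2 58.2 ± 6.82, Dll1 1.62 ± 0.319, Hes1 282 ± 77.6, Hes5 45.8 ± 20.5 and Hey2 30.2 ± 3.66 CPM (SD, n = 3 runs). Dll1 was the rare one: 520 UMIs in 481 cells, 1.95% of all, of which 35 cells had 2 or more UMIs.

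The first question was how the pathway differed between Igfbp2-high and Igfbp2-low cells that were not cycling. The receptors went opposite ways. Notch1 and the targets Hes1 and Hes5 were lower in Igfbp2-high cells, Notch2 was higher, and Hey2 and Dll1 did not pass the test. Thus 1 gene rose, 3 fell and 2 did not pass, in a comparison where 57.4% of the 14301 genes tested passed (27.8% higher and 29.6% lower), so a called change here was no rarity.

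Notch1 stood at 32.2, 32.4 and 43.4 CPM in runs 1, 2 and 3 of Igfbp2-high non-cycling cells, against 63.8, 58.3 and 68.9 CPM in Igfbp2-low non-cycling cells. The groups did not overlap, and the log2 change was -0.79 ± 0.09 (SE; adjusted p = 6.36e-06, edgeR quasi-likelihood test with run as a block). Here and below, a lack of overlap only describes the 3 runs, and its share over all genes was not counted. Notch2 stood at 52.8, 88.2 and 103.8 CPM in Igfbp2-high cells, against 43.2, 52.6 and 52.0 CPM in Igfbp2-low cells. It was higher in all 3 runs, least in run 1, with a log2 change of 0.73 ± 0.11 (adjusted p = 4.75e-05).

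Hes5, the target with the widest span between classes, stood at 7.11, 8.82 and 17.8 CPM in Igfbp2-high non-cycling cells, against 46.0, 79.2 and 117 CPM in Igfbp2-low non-cycling cells. It fell to 0.144 of the Igfbp2-low level, a log2 change of -2.80 ± 0.15 (adjusted p = 1.61e-09). Hes1 stood at 138, 137 and 285 CPM in Igfbp2-high cells, against 346, 366 and 536 CPM in Igfbp2-low cells. Neither gene's groups overlapped, and Hes1 changed by -1.16 ± 0.10 on the log2 scale (adjusted p = 3.45e-07). Hey2 stood at 32.8, 31.1 and 43.6 CPM in Igfbp2-high cells, against 33.0, 28.7 and 37.5 CPM in Igfbp2-low cells, and the groups overlapped. Its log2 change was 0.15 (95% interval -0.036 to 0.34, adjusted p = 0.155). Dll1 stood at 2.72, 3.07 and 1.88 CPM in Igfbp2-high cells, from 43 UMIs, against 1.77, 2.14 and 1.65 CPM in Igfbp2-low cells, from 235 UMIs. The log2 change of Dll1 was 0.51 ± 0.29 (adjusted p = 0.143).

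**Figure D1:**
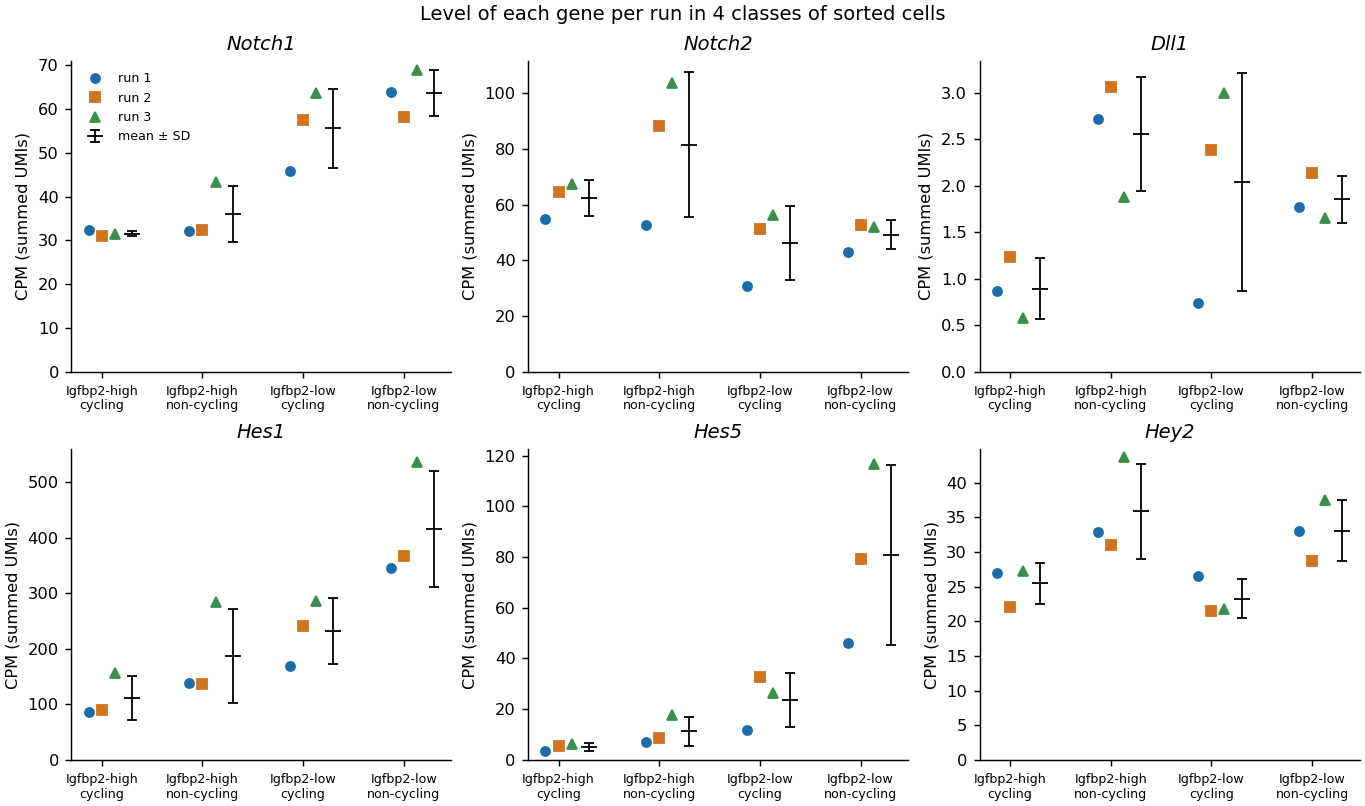
CPM (y axis, from 0) of each of the 6 genes in 4 classes of cells (x axis), with a point per run and the mean ± SD of 3 runs beside them. Hes1 and Hes5 stand lowest in Igfbp2-high cycling and highest in Igfbp2-low non-cycling cells in every run, Notch1 parts by Igfbp2, and Notch2 is highest in runs 2 and 3 of Igfbp2-high non-cycling cells.

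The same comparison among cycling cells gave the same 4 genes past the threshold. Notch2 rose, Notch1, Hes1 and Hes5 fell, and 2 did not pass, where 45.2% of all genes passed (25.6% higher and 19.6% lower). Notch1 stood at 32.3, 31.0 and 31.4 CPM in Igfbp2-high cycling cells, against 45.8, 57.4 and 63.7 CPM in Igfbp2-low cycling cells. The groups did not overlap, and the log2 change was -0.73 ± 0.12 (adjusted p = 2.34e-04). Notch2 stood at 55.0, 64.6 and 67.6 CPM in Igfbp2-high cycling cells, against 31.0, 51.4 and 56.2 CPM in Igfbp2-low cycling cells. It was higher within every run, though the ranges overlap, with a log2 change of 0.54 ± 0.15 (adjusted p = 0.00963). This call did not hold under 6 of 15 alternatives, among them the authors' own choice of cells (0.28, adjusted p = 0.231) and leaving out run 2 (0.61, adjusted p = 0.0530).

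Hes1 stood at 86.7, 89.0 and 157 CPM in Igfbp2-high cycling cells, against 170, 240 and 286 CPM in Igfbp2-low cycling cells. Its groups did not overlap, and it changed by -1.01 ± 0.11 (log2, adjusted p = 6.80e-06). Hes5 stood at 3.55, 5.33 and 6.47 CPM in Igfbp2-high cycling cells, against 11.8, 32.9 and 26.2 CPM in Igfbp2-low cycling cells, again without overlap, and a log2 change of -2.14 ± 0.24 (adjusted p = 6.16e-06). Over all runs, 72 cells rich in microglia markers, which should lack Hes5, held 4.69 CPM of it (6 UMIs). The Igfbp2-high cycling cells lay near that level, and how far the size of the Hes5 change rests on it was not tested. When cycling was set at 4 UMIs or more of the 4 cell cycle genes, which left as few as 32 cells in a run's class, the changes were -0.27 for Hes1 (adjusted p = 0.238) and -1.02 for Hes5 (adjusted p = 0.0895). A further fit left out every cell with 2 or more UMIs of all listed microglia, astrocyte, endothelial and pericyte markers together. It kept as few as 5 cells in a run's class, and Hes5 gave -0.66 ± 1.61 (adjusted p = 0.887) and Notch1 -1.02 ± 0.34 (adjusted p = 0.0909). Hey2 stood at 27.0, 22.0 and 27.3 CPM in Igfbp2-high cycling cells, against 26.6, 21.5 and 21.7 CPM in Igfbp2-low cycling cells, a log2 change of 0.21 (95% interval -0.091 to 0.52). The Dll1 comparison rested on 9 UMIs in Igfbp2-low cycling cells and gave -1.09 ± 0.53 (adjusted p = 0.111). Without the cells that held other types' rarer markers, microglia among them, Notch1, Notch2, Hes1 and Hes5 kept their calls in both Igfbp2 comparisons.

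Whether Igfbp2 status made a different difference in cycling than in non-cycling cells was tested as an interaction. None of the 6 genes passed by edgeR's adjusted p, where 14.4% of all genes did (7.36% higher and 6.99% lower), and DESeq2 called none of the 6 either. The largest terms were -1.60 ± 0.61 for Dll1 (adjusted p = 0.0960) and 0.66 ± 0.26 for Hes5 (adjusted p = 0.110), both on the log2 scale and both under an unadjusted p of 0.05. The intervals of the others were -0.17 to 0.48 for Hes1, -0.30 to 0.42 for Hey2, -0.26 to 0.39 for Notch1 and -0.60 to 0.21 for Notch2. For Hes1 the stricter definition of cycling turned the term into a call (0.90, adjusted p = 0.00820), and for Hes5 it gave 1.78 (adjusted p = 0.00484). The Hes5 term passed under 4 of 15 alternatives in all, at 0.76 to 1.78 in those, and stood at 0.15 (adjusted p = 0.813) without the cells of other types' rarer markers.

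The second question was how cycling and non-cycling cells of one Igfbp2 class differed. Among Igfbp2-high cells, 5 of the 6 genes were lower in cycling cells and Notch1 did not pass, where 48.0% of all genes passed (24.8% higher and 23.2% lower). Hes1 averaged 111 ± 39.8 CPM in cycling and 187 ± 85.0 CPM in non-cycling cells (SD, n = 3), a log2 change of -0.73 ± 0.10 (adjusted p = 4.93e-05). Hes5 averaged 5.12 ± 1.47 CPM in cycling and 11.2 ± 5.72 CPM in non-cycling cells (SD, n = 3), a change of -1.11 ± 0.19 (adjusted p = 2.04e-04). Its level in these cycling cells lay near the 4.69 CPM of the cells rich in microglia markers. How far the size of the change rests on values near background was not tested. Hey2 was lower in cycling cells in all 3 runs, with a log2 change of -0.48 ± 0.09 (adjusted p = 4.34e-04). Dll1, at 0.865, 1.24 and 0.583 CPM in cycling cells from 103 UMIs, against the 1.88 to 3.07 CPM of non-cycling cells, did not overlap between the classes. Its log2 change was -1.53 ± 0.31 (adjusted p = 9.46e-04). Notch2 was higher in run 1 and lower in runs 2 and 3 of cycling cells, and its value of -0.35 ± 0.11 (adjusted p = 0.0155) lost the call without run 2 (-0.29, adjusted p = 0.185) or run 3 (-0.20, adjusted p = 0.205). Notch1 gave -0.17 ± 0.10 (adjusted p = 0.156), and passed without run 1 (-0.34, adjusted p = 0.0233).

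Among Igfbp2-low cells, Hes1, Hes5 and Hey2 were lower in cycling cells, and the receptors and Dll1 did not pass, where 32.5% of all genes passed (16.8% higher and 15.6% lower). Hes5 stood at 11.8, 32.9 and 26.2 CPM in cycling cells, against 46.0, 79.2 and 117 CPM in non-cycling cells, a log2 change of -1.77 ± 0.18 (adjusted p = 3.89e-06). Hes1 changed by -0.88 ± 0.11 (adjusted p = 3.17e-05). Neither gene's groups overlapped between the classes. Hey2 changed by -0.54 ± 0.14 (adjusted p = 0.00747), but this call held in only 6 of 15 alternatives, over which the change ranged from -1.08 to 0.18. Among the losses were the fits without run 2 (-0.58, adjusted p = 0.0536), without run 3 (-0.42, adjusted p = 0.0749) and without cells of other types' rarer markers (-0.37, adjusted p = 0.108). In cells of 8000 to 16000 UMIs alone, as few as 36 in a run's class, Hes1 gave -0.35 (adjusted p = 0.0938) and Hes5 -0.83 (adjusted p = 0.129). The remaining changes were -0.24 ± 0.11 for Notch1, -0.15 ± 0.15 for Notch2 and 0.071 ± 0.48 for Dll1.

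**Figure D2:**
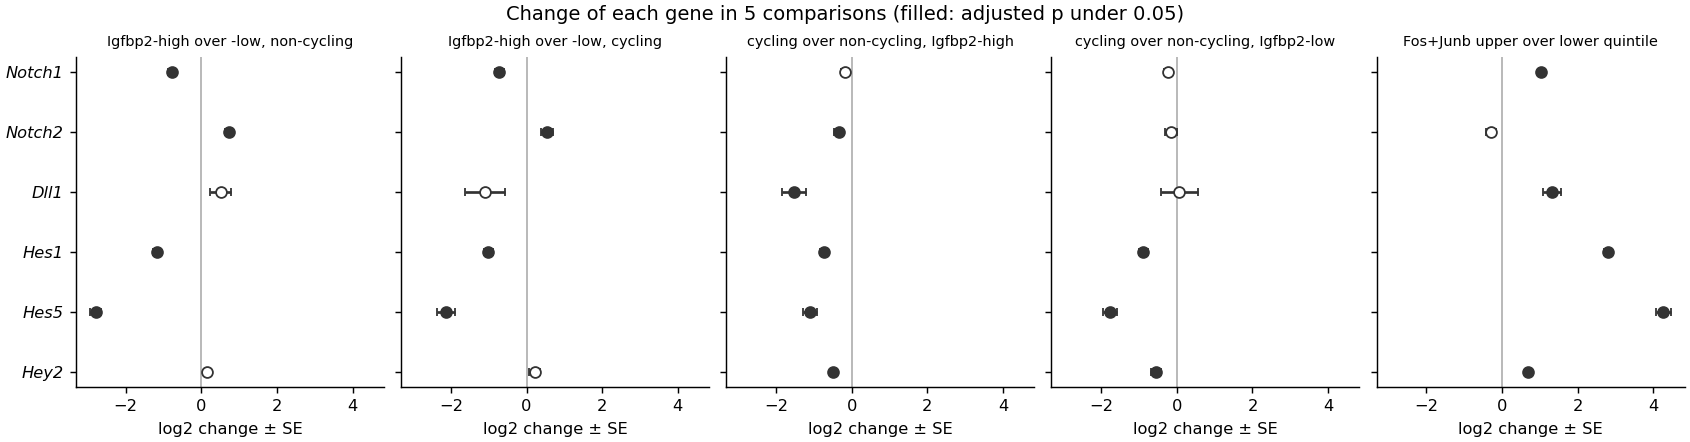
Log2 change ± SE (x axis) of each of the 6 genes (rows) in 5 comparisons (panels), filled where the adjusted p was under 0.05. Hes1 and Hes5 lie left of 0 in the 4 comparisons by Igfbp2 and cycle and right of 0 by Fos and Junb, with Hes5 at 4.26 in the last panel.

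All the changes above are of shares of RNA. A gene's UMIs per cell give another picture for the genes that changed least, since cycling and Igfbp2-high cells held more UMIs. Scaled per cell, the median of all genes moved to 0.58 for cycling over non-cycling Igfbp2-high cells, 0.64 for Igfbp2-low cells, 0.52 for Igfbp2-high over Igfbp2-low non-cycling cells and 0.51 for cycling cells. Hes5 stayed lower and past the threshold on that scale in all 4 (-0.51, -1.05, -2.22 and -1.68 in the same order). Notch1 turned to 0.42 and 0.47 in the cycle comparisons and to -0.21 and -0.27, no longer past the threshold, in the Igfbp2 comparisons. In the cycle comparisons Hes1 turned to -0.13 and -0.18, no longer past the threshold in either, and Hey2 to 0.11 and 0.16. Relative to the shift of all genes, Notch1 changed by -0.74 and -0.78 in the Igfbp2 comparisons and Hes1 by -0.71 and -0.81 in the cycle comparisons. Taking off that shift undoes the scaling per cell and returns the main fit, so these values add no support to it.

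Hes1 and Hes5 had an order over the 4 classes that the 3 runs shared, while Notch1, Notch2, Hey2 and Dll1 had no such full order. Hes1 and Hes5 were higher in every run at each step through Igfbp2-high cycling, Igfbp2-high non-cycling, Igfbp2-low cycling and Igfbp2-low non-cycling cells. The ranges of Igfbp2-high non-cycling and Igfbp2-low cycling cells overlapped for both genes, and these neighbours were not tested against each other. Notch1 was lower in both Igfbp2-high classes, which did not differ past the threshold, than in both Igfbp2-low classes, which did not either. The share of cells with a Hes1 or Hes5 UMI followed the same order after each cell was thinned to 3500 UMIs. Hes5 was then seen in 1.46% ± 0.671 of Igfbp2-high cycling, 3.02% ± 0.884 of Igfbp2-high non-cycling, 6.12% ± 2.95 of Igfbp2-low cycling and 11.8% ± 3.28 of Igfbp2-low non-cycling cells (SD, n = 3), and without thinning in 5.58%, 5.96%, 11.9% and 17.8%. Hes1 was seen in 28.1% ± 6.73, 36.5% ± 9.95, 46.9% ± 10.6 and 62.1% ± 6.58 of the same classes after thinning, and in 68.9%, 67.5%, 75.8% and 82.0% without it. In 72 cells rich in microglia markers (median 15443.5 UMIs), which should lack Hes5, the thinned share over all runs together was 18.1% for Hes1 and 1.39% for Hes5, which is 1 cell. That is too few to set a background for Hes5, and its share in Igfbp2-high cycling cells (median 22231 UMIs) is not read as expression.

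The levels were also taken over finer steps of Igfbp2, which are not parted by cycle: of the 6520 cells in the upper 2 steps, 4961 were cycling. Over cells with under 1, 1 to 5, 5 to 20 and at least 20 Igfbp2 UMIs per 10000, Hes1 averaged 406 ± 103, 368 ± 66.4, 134 ± 43.5 and 116 ± 46.4 CPM. Hes5 averaged 77.4 ± 34.3, 63.8 ± 26.4, 9.71 ± 3.29 and 3.95 ± 1.46 CPM over the same steps (SD, n = 3). For both genes the widest gap lay between the second and the third step in each run. Notch1 averaged 63.4 ± 5.04, 60.2 ± 4.77, 39.8 ± 2.77 and 27.6 ± 0.279 CPM, with a gap at the third step and another at the fourth. Notch2 averaged 49.0 ± 5.42, 68.2 ± 14.5, 70.2 ± 4.66 and 64.4 ± 9.25 CPM, and was lowest in the first step in each run.

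**Figure D3:**
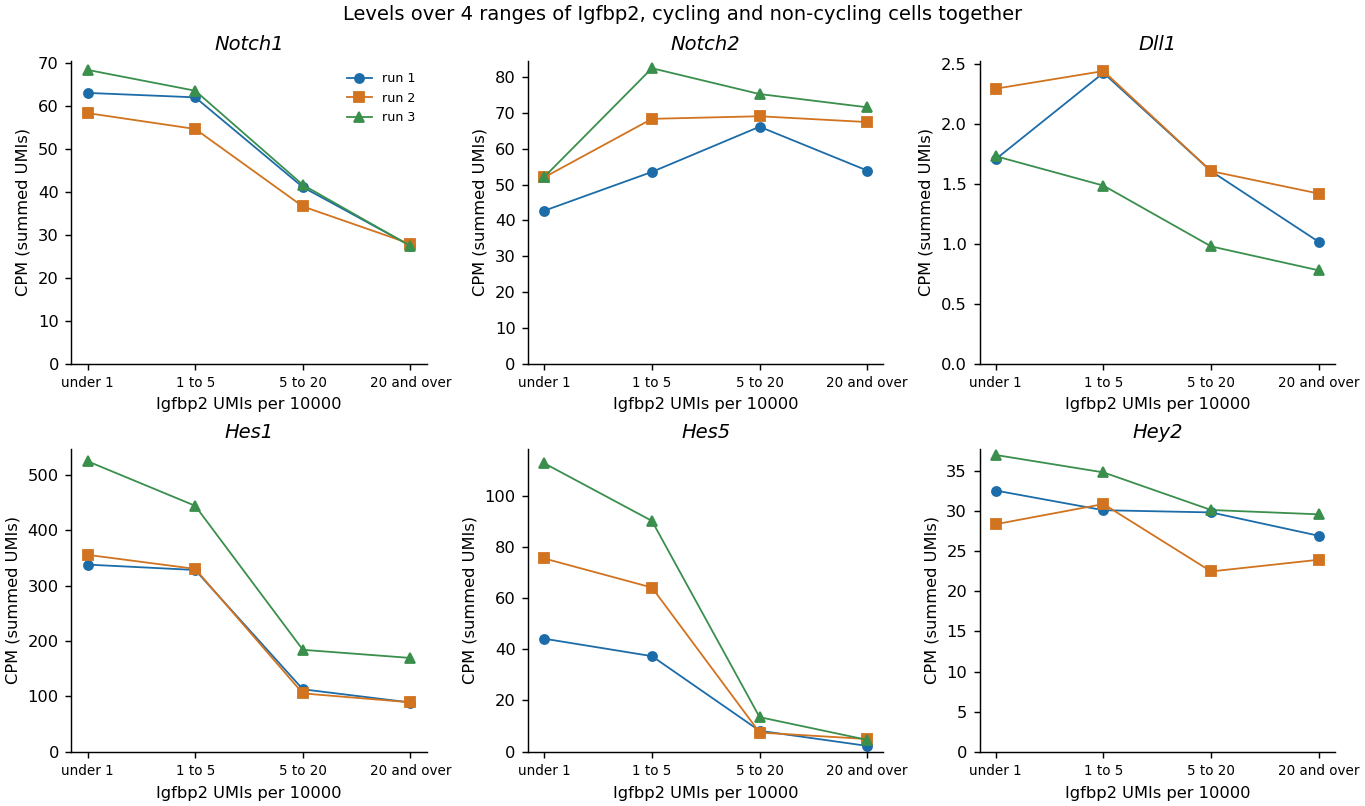
CPM (y axis, from 0) of each gene over 4 ranges of Igfbp2 (x axis), with a line per run. Hes1 and Hes5 drop between 1 to 5 and 5 to 20 Igfbp2 UMIs per 10000, to means of 134 and 9.71 CPM, while Hey2 stays between 22.5 and 37.0 CPM.

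The same was seen along the cell cycle genes. With 0, 1, 2 to 4 and at least 5 UMIs of Top2a, Mki67, Cdk1 and Ccnb1, Hes1 stood at 320, 269, 149 and 81.1 CPM in run 1, at 352, 292, 174 and 87.6 CPM in run 2 and at 513, 430, 233 and 156 CPM in run 3, lower at each step. Hes5 in the same steps stood at 39.8, 31.5, 8.73 and 3.06 CPM in run 1 and was lower at each step in the other runs too. These steps are not parted by Igfbp2, and most cycling cells were Igfbp2-high.

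The third question was how the genes varied with Fos and Junb, immediate early genes that respond to stress and growth signals and also to cell dissociation. The upper quintile (one part of 5 of the cells, ranked by Fos and Junb UMIs together) of each run was set against the lower quintile, with 4935 cells in each. Of the 6 genes, 5 were higher in the upper quintile, and Notch2 did not pass, where 77.3% of the 13597 genes tested passed (39.0% higher and 38.4% lower). The quintiles differed in kind: Igfbp2-low non-cycling cells made up 69.0%, 68.4% and 79.1% of the upper quintile, against 17.2%, 8.86% and 16.0% of the lower quintile, in which Igfbp2-high cycling cells were 56.3%, 71.6% and 61.9%. Median depth ranged from 7607 to 8991 UMIs in the upper quintile and from 14148.5 to 21359 UMIs in the lower quintile. The median mitochondrial share was 5.40%, 5.49% and 6.33% in the upper quintile, against 3.22%, 2.94% and 3.56% in the lower quintile, and the endothelial markers summed to 521 to 566 CPM against 114 to 139.8 CPM. Their part in the changes below was not tested.

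Hes1 stood at 504, 561 and 725 CPM in the upper quintile, against 70.0, 67.8 and 123 CPM in the lower quintile. This was a 6.92-fold higher level, a log2 change of 2.79 ± 0.09 (adjusted p = 6.35e-07). Hes5 stood at 60.7, 107 and 144 CPM in the upper quintile, against 2.75, 3.81 and 10.8 CPM in the lower quintile, a log2 change of 4.26 ± 0.19 (adjusted p = 1.87e-06). Neither gene's groups overlapped, and all 3 runs of each showed the direction, in a comparison where 77.3% of all genes passed. Cells rich in microglia markers, 72 over all runs, held 71.8 CPM of Hes1 (92 UMIs) and 4.69 CPM of Hes5 (6 UMIs). The lower quintile of runs 1 and 2 was under these levels for both genes. These cells are too few to set a background, so how far the size of either change rests on values near background was not tested. Notch1 stood at 66.3, 66.6 and 67.5 CPM in the upper quintile, against 32.1, 31.2 and 32.6 CPM in the lower quintile, with no overlap. Its log2 change was 1.04 ± 0.06 (adjusted p = 6.05e-06).

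Hey2 stood at 35.9, 35.2 and 46.2 CPM in the upper quintile, against 25.5, 19.9 and 25.5 CPM in the lower quintile, a log2 change of 0.70 ± 0.10 (adjusted p = 4.41e-04). Dll1 stood at 2.39, 3.02 and 2.39 CPM in the upper quintile, against 0.969, 1.42 and 0.704 CPM in the lower quintile, a change of 1.31 ± 0.24 (adjusted p = 0.00156). Notch2 stood at 45.4, 65.0 and 46.7 CPM in the upper quintile, against 53.6, 60.6 and 74.2 CPM in the lower quintile. The runs went different ways, with a log2 change of -0.29 ± 0.13 (adjusted p = 0.0745). Scaled per cell, all genes shifted by -1.10, and Hey2 (-0.42) and Notch1 (-0.080) changed sign while Hes1 (1.68) and Hes5 (3.15) did not.

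Because the quintiles differ in Igfbp2 and cycle, the quintiles were also set anew within classes. Within Igfbp2-low non-cycling cells, where 23.6% of the genes tested passed, Hes1 changed by 1.54 ± 0.10 (adjusted p = 1.36e-04), Hes5 by 1.36 ± 0.18 (adjusted p = 0.00218) and Hey2 by 0.68 ± 0.09 (adjusted p = 0.00252). Notch1 (0.27 ± 0.09, adjusted p = 0.0719) and Dll1 (0.58 ± 0.36, adjusted p = 0.275) no longer passed there. Within Igfbp2-high cells, cycling or not, where 55.8% passed, the changes were 2.64 ± 0.10 for Hes1, 2.72 ± 0.21 for Hes5, 0.76 ± 0.10 for Hey2 and 0.54 ± 0.08 for Notch1, all past the threshold. Notch2 gave 0.15 ± 0.17 and 0.035 ± 0.088 in these fits. Conversely, with cells of the 3 middle Fos+Junb quintiles alone, Igfbp2-high over Igfbp2-low non-cycling cells gave -0.70 for Hes1, -2.34 for Hes5, -0.63 for Notch1 and 0.66 for Notch2, all still past the threshold. Hey2 (0.31, adjusted p = 0.0107) and Dll1 (0.90, adjusted p = 0.0345) passed in that fit.

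Along all 5 quintiles within Igfbp2-low non-cycling cells, low to high, Hes1 stood at 124, 210, 300, 357 and 522 CPM in run 1, at 88.2, 195, 331, 399 and 565 CPM in run 2 and at 275, 390, 485, 557 and 745 CPM in run 3. It was higher at each step in each run. Hes5 reached 63.2, 117 and 149 CPM in the top quintile of runs 1, 2 and 3, and stood at 10.1, 7.30 and 65.5 CPM in their lowest quintile. In Igfbp2-high cycling cells Hes1 was also higher at each step over the first 4 quintiles, reaching 217, 235 and 372 CPM in the fourth, and Hes5 there stayed between 1.39 and 22.0 CPM. Their top quintile held 5 to 21 cells a run and is not read. In each of the first 4 quintiles and each run, Hes1 was lower in Igfbp2-high cycling than in Igfbp2-low non-cycling cells.

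**Figure D4:**
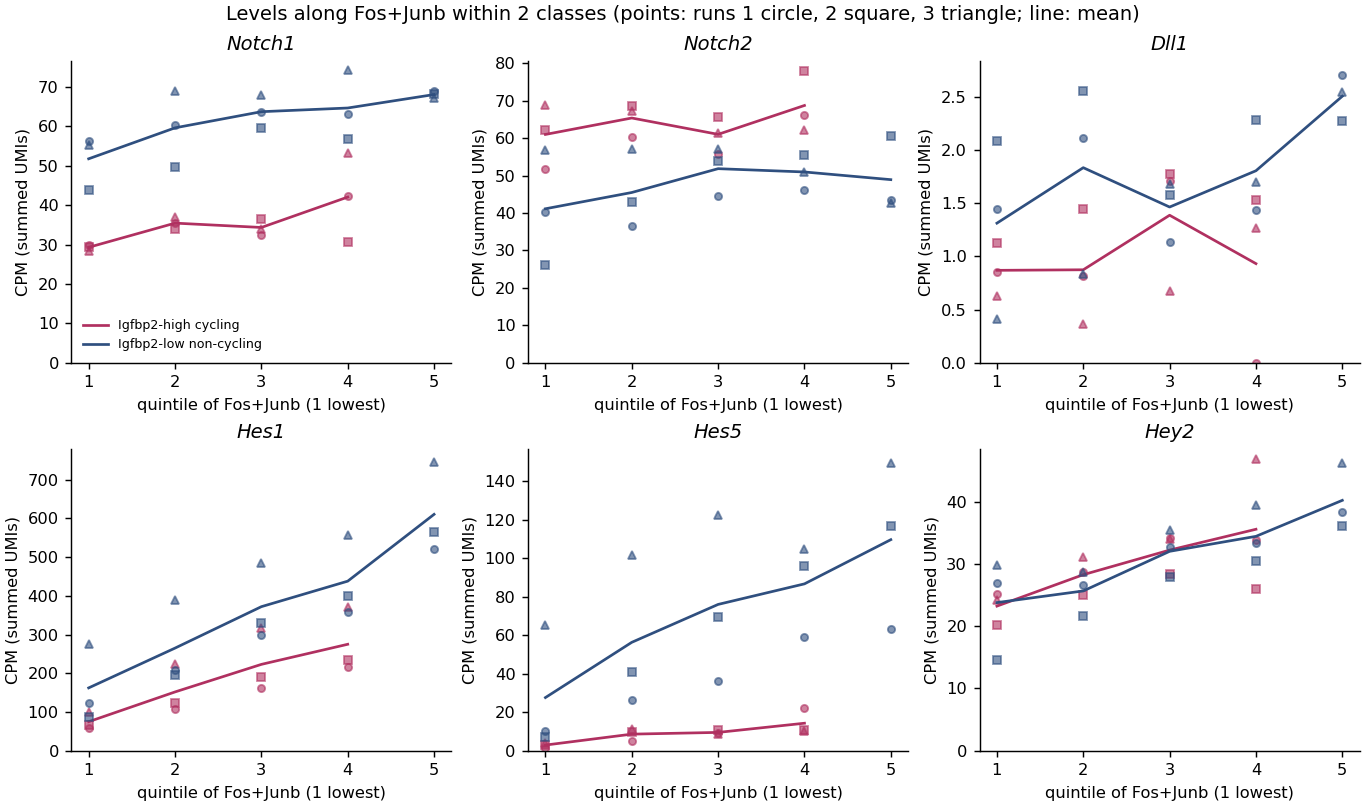
CPM (y axis, from 0) of each gene along the quintiles of Fos+Junb (x axis, 1 lowest) in Igfbp2-high cycling and Igfbp2-low non-cycling cells, with a point per run and a line through the mean, and without the sparse top quintile of Igfbp2-high cycling cells. The means of Hes1 and Hey2 climb in both classes, and Hes5 stays at or under 22.0 CPM in Igfbp2-high cycling cells.

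The other genes of the pathway were taken from a list of 53, of which 48 were tested (46 for Fos and Junb). In Igfbp2-high over Igfbp2-low non-cycling cells 9 rose, 27 fell and 12 missed the threshold, where 27.8% of all genes were higher and 29.6% lower, and the list had its median at -0.38 (log2) against -0.05 for all genes. Among cycling cells 6 rose, 22 fell and 20 did not pass (median -0.36 against 0.05), where 25.6% of all genes were higher and 19.6% lower. Lfng, which encodes the Fringe enzyme that adds sugars to Notch receptors, stood at 8.62, 3.26 and 5.64 CPM in Igfbp2-high non-cycling cells, against 33.7, 24.5 and 35.0 CPM in Igfbp2-low non-cycling cells. It changed by -2.34 ± 0.17 (log2) there and by -2.08 among cycling cells. Hey1, a further Notch target, changed by -1.65 ± 0.16 in non-cycling and by -1.97 in cycling cells. Nrarp, a target and feedback inhibitor of Notch, changed by -1.56 ± 0.17 in non-cycling cells, and Tle4, a co-repressor that Hes proteins recruit, by -1.01 ± 0.14. Rbpj, the DNA-binding partner of cleaved Notch, changed by -0.50 in non-cycling cells (adjusted p = 5.41e-04) and by -0.17 in cycling cells (adjusted p = 0.342), and was named after its values were seen. Of those with a mean of 10 CPM or more, the rises were led by Ccnd1 (cyclin D1, 2.31 ± 0.14 in non-cycling and 1.61 in cycling cells), Numbl (an adaptor that antagonises Notch, 1.60 ± 0.12 and 1.11) and Aph1a (a subunit of the gamma-secretase that cleaves Notch, 0.93 ± 0.07 and 0.83). Dtx4, which encodes a Deltex ubiquitin ligase, rose by 0.84 ± 0.13 in non-cycling cells. Among the rarer genes Dlk2, which encodes a non-canonical Delta-like protein, stood at 11.5, 6.52 and 5.64 CPM in Igfbp2-high non-cycling cells, from 137 UMIs, against 0.138, 0.106 and 0 CPM in Igfbp2-low non-cycling cells, from 10 UMIs. It rose by 6.55 ± 0.41 there and by 3.55 ± 0.79 among cycling cells, where Igfbp2-low cells held 2 UMIs, and was named after its values were seen.

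**Figure D5:**
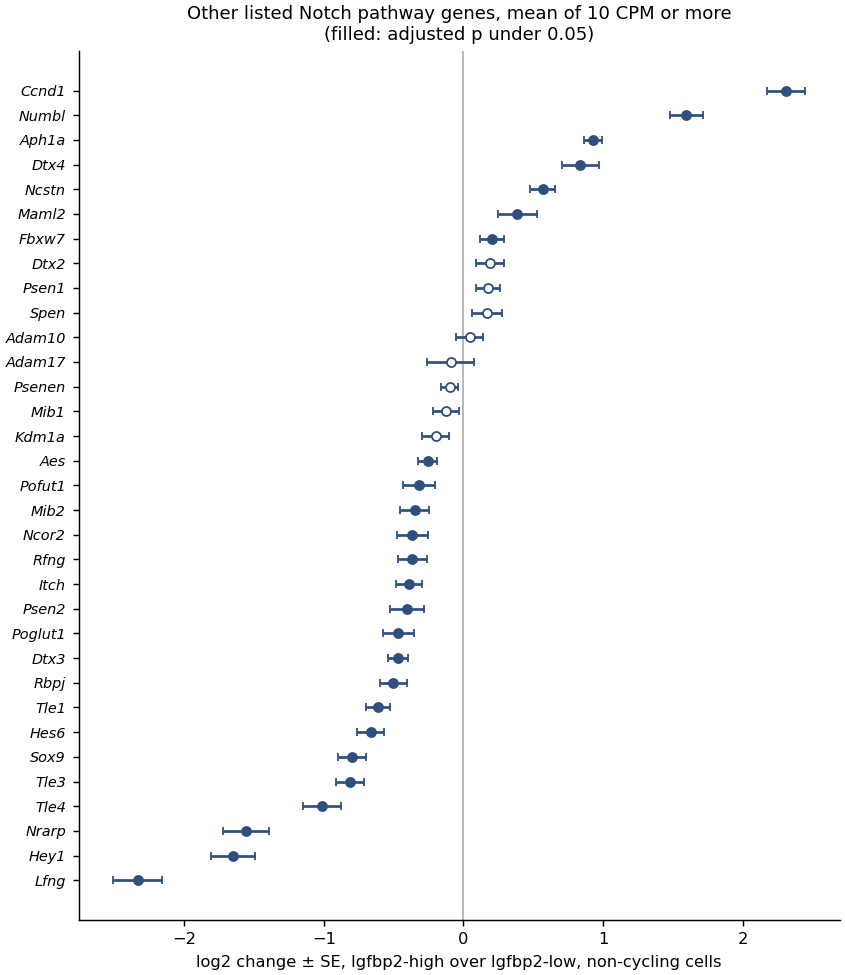
Log2 change ± SE (x axis) in Igfbp2-high over Igfbp2-low non-cycling cells of the 33 listed pathway genes with a mean of 10 CPM or more (rows), filled where the adjusted p was under 0.05. Lfng, Hey1 and Nrarp lie farthest left, and Ccnd1 and Numbl farthest right.

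In cycling over non-cycling Igfbp2-high cells 4 of the list rose, 15 fell and 29 did not pass (median -0.18 against -0.01), where 24.8% of all genes were higher and 23.2% lower. In Igfbp2-low cells 3 rose, 8 fell and 37 did not pass (median -0.09 against -0.07), where 16.8% of all genes were higher and 15.6% lower. Psen2, a catalytic subunit of gamma-secretase, was lower in cycling cells of the Igfbp2-high class, at 4.29, 3.49 and 2.62 CPM against 15.0, 16.9 and 14.2 CPM in non-cycling cells. This was a log2 change of -2.14. It did not pass among Igfbp2-low cells (-0.41, adjusted p = 0.0969), and the difference between the classes passed as an interaction (-1.73, adjusted p = 5.38e-04). Nrarp went the other way, with 12.7, 11.5 and 14.6 CPM in Igfbp2-high cycling cells against 5.44, 8.05 and 5.01 CPM in Igfbp2-high non-cycling cells. Nrarp thus rose by 1.06 where Hes1 and Hes5 fell, and its interaction was 1.14 (adjusted p = 0.0105). The 2 other interactions that passed were Ccnd1 (-0.70) and Sox9, a transcription factor of Müller glia (-0.67). Of the 48 listed genes tested, the interaction was thus higher for 1, lower for 3 and did not pass for 44. Over all genes 7.36% were higher and 6.99% lower. Between Fos+Junb quintiles 29 of 46 rose, 9 fell and 8 did not pass (median 0.47 against 0.02), where 39.0% of all genes were higher and 38.4% lower. Among those with a mean of 10 CPM or more, Lfng (2.80), Sox9 (2.17), Hey1 (1.77) and Psen2 (1.61) had the largest rises and Ccnd1 (-2.98) and Numbl (-1.29) the largest falls. Of the rarer genes, Tle2 rose by 3.78 and Dlk2 fell by 5.77 there, both named after their values were seen.

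Genes that Hes proteins are known to repress were not higher where Hes1 and Hes5 were lower. Of 7 listed proneural genes 5 were tested, and in Igfbp2-high over Igfbp2-low cells 3 fell and 2 did not pass, in non-cycling and in cycling cells alike. Of all genes, 29.6% were lower among non-cycling and 19.6% among cycling cells. Neurog2 stood at 3.02, 0.192 and 0.835 CPM in Igfbp2-high non-cycling cells, 25 UMIs of which 20 were from run 1, against 20.1, 10.6 and 13.3 CPM in Igfbp2-low non-cycling cells. Its log2 change was -3.29 ± 0.29, and -2.93 ± 0.40 among cycling cells. Neurod1 changed by -0.85 and -0.77 in the same comparisons. Neurod1 is abundant in photoreceptors, whose rod markers were also higher in Igfbp2-low non-cycling cells. Their part in the result was not tested. In the upper over the lower Fos+Junb quintile the 3 proneural genes tested rose, where 39.0% of all genes were higher. Neurog2 rose by 2.10 and Neurod1 by 1.53, and the rod markers summed to 1901 to 2036 CPM against 516 to 701 CPM.

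The Id genes, whose proteins bind and block helix-loop-helix factors and can also relieve the self-repression of Hes1, moved in part with it. Id1, Id2 and Id3 fell in Igfbp2-high over Igfbp2-low non-cycling cells, with log2 changes of -1.23, -1.69 and -0.81, while Id4 rose by 1.74. The same directions passed among cycling cells, at -1.99 for Id1, -1.22 for Id2, -1.92 for Id3 and 0.80 for Id4. Of all genes, 25.6% were higher and 19.6% lower there. Id3 was also lower in cycling cells of both Igfbp2 classes (-2.09 and -0.98), and Id1, Id2 and Id3 were higher in the upper Fos+Junb quintile (2.25, 1.63 and 3.13), where Id4 gave 0.08 and did not pass. Of the 20 listed immediate early genes, 15 fell and 2 rose in Igfbp2-high over Igfbp2-low non-cycling cells, where 29.6% of all genes were lower and 27.8% higher. All 20 rose between the Fos+Junb quintiles, which Fos and Junb had set, where 39.0% of all genes were higher.

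Over the 12 profiles (4 classes in 3 runs, each centred on its run), the patterns of Hes1 and Hes5 were close to each other (Pearson r = 0.984) and to Notch1 (0.912 and 0.933). Notch2 ran the other way (-0.643 with Notch1), and Hey2 had no relation to Notch1 (-0.00218). These values describe 12 profiles that share libraries and depth, and carry no test. Among some 2875 genes with a mean of at least 50 CPM, the patterns most like Hes1 were those of Jun, Ier2 and Clu (0.995, 0.992 and 0.991), the first 2 of them immediate early genes. Those most like Hes5 were Irf2bpl, Adamts1 and Eno1 (0.995, 0.994 and 0.993). Notch1 was most like Cd44, Egr1 and Iscu (0.979, 0.979 and 0.974), Notch2 like Abhd2, Uba1 and Pdpn (0.957, 0.947 and 0.947), Hey2 like Rgs6, Bdh2 and Prmt2 (0.965, 0.943 and 0.937), and Dll1, from few UMIs, like Atp5d, Ndufa4 and Ndufb2 (0.966, 0.946 and 0.919).

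Reads were not stated to be counted by strand, and annotated genes overlap the spans of some of the genes: Gm20421 lies on the opposite strand of Hes5 on chromosome 4 (154960923 to 154962371), A930024N18Rik overlaps Dll1 on chromosome 17 (15367354 to 15376872), and Notch1 on chromosome 2 (26457903 to 26516663) and Notch2 on chromosome 3 (98013527 to 98150361) hold small annotated transcripts. Hes1 lies on chromosome 16 (30064384 to 30067796) and Hey2 on chromosome 10 (30832359 to 30842801), all in GENCODE M21.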

How the data were processed

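Per the submitters' processing notes, the authors used Cell Ranger, whose version is not given in the sources used here, with mm10 and Seurat 2.3.4, on libraries of the 10X Chromium 3' v2 kit. The deposited table of UMI counts per gene and cell was the source of every value. A deposited table of natural log values, which holds 13511 of the cells, served only as the list of the authors' cells for an alternative, and how those were chosen is not given in the sources used here. No other column of per-sample values was found. Of 24695 cells, 24672 passed a minimum of 500 genes and a maximum of 20% of UMIs from mitochondria, and these had 3538 UMIs or more. Doublets were not called or removed. Any pair of runs had 83 to 108 cell barcodes in common.

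UMIs were summed per run and class and tested with edgeR 4.0.16 (R 4.3.3): filterByExpr, TMM, quasi-likelihood test, Benjamini-Hochberg adjustment over all genes tested, threshold 0.05. The 12 profiles of the 4 classes shared one fit and the 6 profiles of the Fos+Junb quintiles another. Every class of a run comes from the same library, so run was a block. The genes that set the classes (Igfbp2, Top2a, Mki67, Cdk1, Ccnb1, Fos and Junb) were not tested, though they entered the scaling. Fos+Junb was taken per 10000 UMIs and its quintiles over all kept cells of a run. The procedure was tested on simulated counts. DESeq2 1.42.0 was an alternative. Other tools were Python 3.11.15, numpy 2.4.6, pandas 2.3.3 and matplotlib 3.10.9.

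The 6 genes and the lists were chosen with earlier results of these data known. All 6 are named in every comparison. From the pathway list, the genes that could be named were up to 8 called ones per comparison with the largest change and a mean of at least 10 CPM, of which the text names the leading ones. A planned comparison of the protein sequences was not made here. Shares and totals of UMIs carry counting error only, and the depth of each class limits the precision of Dll1 most.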

Additional observations from a re-analysis of the deposited data

How the results depend on the processing

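Over 14 to 16 alternatives for each gene and comparison, 439 values of the 6 genes kept their direction and their side of the threshold, 32 lost the call, 21 gained one and 47 changed sign; the cause of each was not tested. The calls that held in every alternative run were those of Hes1, Hes5 and Notch2 in Igfbp2-high over Igfbp2-low non-cycling cells (Hes1 -1.31 to -0.59, Hes5 -3.34 to -2.22, Notch2 0.59 to 1.30), of Dll1 in cycling over non-cycling Igfbp2-high cells (-1.89 to -0.94), and of Hes1 and Hes5 between Fos+Junb quintiles (1.54 to 3.49 and 1.36 to 5.72).

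Without the replicate block, which treats the classes of a run as unpaired, the counts of called genes were 4875 and 3566 for the cycle in Igfbp2-high and Igfbp2-low cells, 9577 for Fos+Junb, 5527 and 6460 for Igfbp2 in cycling and non-cycling cells, and 892 for the interaction, against 2053 with the block. Without the block the calls of Hes1 (-0.75, adjusted p = 0.0935), Hes5 (-1.10, adjusted p = 0.0747) and Notch2 (-0.38, adjusted p = 0.226) for the cycle in Igfbp2-high cells were lost, and so were those of Hes1 in Igfbp2-low cells (-0.89, adjusted p = 0.0665) and of Notch2 for Igfbp2 in cycling cells (0.52, adjusted p = 0.131).

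Scaling by UMIs per cell changed the sign of Hey2 (0.11), Notch1 (0.42) and Notch2 (0.25) for the cycle in Igfbp2-high cells, of Hey2 (0.16), Notch1 (0.47) and Notch2 (0.56) in Igfbp2-low cells, of Hey2 (-0.42) and Notch1 (-0.080) for Fos+Junb and of the interactions of Hey2 (-0.052) and Notch1 (-0.053). Of the called genes, 90.0% and 98.7% were then higher in cycling cells, against 51.7% and 51.9% in the main fit. They were 85.2% and 82.0% for Igfbp2 in non-cycling and cycling cells, against 48.4% and 56.6%, and 13.4% for Fos+Junb, against 50.4%. The count for the cycle in Igfbp2-low cells moved to 7715. With no filter on low counts 67.2% of the interaction's calls were higher, with RLE size factors 32.5% and with DESeq2 28.1%, against 51.3%.

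Leaving out cells with 2 or more UMIs of all listed microglia, astrocyte, endothelial and pericyte markers, Kdr among them, kept 3182 of 19418 cells. Rod and other neuronal markers did not enter this filter. Counts then moved to 2867 and 1521 for the cycle in Igfbp2-high and Igfbp2-low cells, 6882 for Fos+Junb, 482 and 4405 for Igfbp2 in cycling and non-cycling cells and 242 for the interaction. Signs changed for Notch1 (0.14) in the first, Hey2 (0.18) and Notch2 (0.48) in the second, Hey2 (-0.67) and Notch2 (-0.26) for Igfbp2 in cycling cells and Hey2's interaction (-0.80). Leaving out cells by rarer markers only, a choice made after seeing the data, kept 18591 cells and moved the interaction count to 1216, with Hes1 at -0.057 and Hey2 at -0.12.

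Cells of 8000 to 16000 UMIs gave 766 calls for the cycle in Igfbp2-low cells and 1090 for the interaction. Signs changed for Notch2 in both cycle comparisons (0.22 and 0.20), Hey2 for Igfbp2 in cycling cells (-0.29) and the interactions of Hes1 (-0.38), Hes5 (-0.67), Hey2 (-0.49) and Notch2 (0.016). The 3 middle Fos+Junb quintiles gave 2897 and 1076 calls for the same comparisons and interactions of -0.00471 for Hey2, -0.091 for Notch1 and 0.11 for Notch2. The stricter Igfbp2 limits (at least 10 against 0 UMIs) gave 2899 calls for the cycle in Igfbp2-low cells, Dll1 at -0.72 there, Hey2 at -0.046 for Igfbp2 in cycling cells and an interaction of -0.12 for Hey2. Cycling at 4 or more UMIs gave 3155 calls for Igfbp2 in cycling cells and Dll1 at -0.084 for the cycle in Igfbp2-low cells. The authors' cells gave 3822 calls for Igfbp2 in cycling cells and 927 for the interaction, Dll1 at -0.046 for the cycle in Igfbp2-low cells, Notch2 at 0.16 for Fos+Junb and an interaction of -0.13 for Hey2. Interactions were -0.034 for Hey2 and -0.034 for Notch1 with DESeq2, and -0.034 and -0.035 with RLE size factors. Within Igfbp2-high and Igfbp2-low non-cycling cells Fos+Junb gave 6711 and 2851 calls, with Notch2 at 0.035 and 0.15.

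Leaving out a run moved the counts over 4960 to 6043 and 3295 to 3463 for the cycle in Igfbp2-high and Igfbp2-low cells, and from 559 (without run 2) over 973 (without run 1) to 1426 (without run 3) for the interaction. It moved Dll1 over -0.33 to 0.41 and Notch2 over -0.27 to 0.000862 for the cycle in Igfbp2-low cells, and the interactions of Hes1 over -0.045 to 0.24, of Hey2 over -0.037 to 0.11, of Notch1 over -0.24 to 0.26 and of Notch2 over -0.61 to 0.075.

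Depth limits Dll1 most, with 9 UMIs in Igfbp2-low cycling cells. These limits apply throughout: the classes differ in depth, in mitochondrial share, in Fos+Junb and in markers of other cells at once, whether the runs are technical repeats is not given, and no control without YAP5SA was compared.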
